A study of Phaseolus vulgaris with 18 samples.

Results

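FtsH, Clp, Deg and Lon are the energy-dependent and serine proteases that turn over proteins inside plastids, mitochondria and peroxisomes, and 42 genes for them were followed in pod walls of common bean, Phaseolus vulgaris. The genes were taken by their descriptions in the deposited table (the words FtsH, Clp protease, ClpC, ClpX, DegP, Deg protease or Lon protease), with a count of at least 10 in at least 3 of the 18 libraries. Of the 25124 genes in the table, 43 carried such a description and 42 of these passed the count. They comprised 14 FtsH genes, 8 genes for subunits of the Clp core, 5 genes for ClpC, ClpX and Clp proteins not specified further, 7 Deg genes, 3 Lon genes and 5 genes of a family described jointly as ribosomal protein L12 and Clp adaptor ClpS. Of the last family 3 carried a ribosome constituent term in the table's Gene Ontology (GO) annotation and 2 did not. The gene just outside the count rule was Phvul.008G087400 (DegP protease 7), with at most 3 counts in a library, and the one just inside was Phvul.008G040800 (FtsH protease 6), with 10 or more counts in 10 libraries. The other 41 genes reached that count in all 18 libraries.

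FtsH proteases are membrane-bound rings that unfold and degrade membrane proteins. In the thylakoid they remove damaged photosystem II reaction-centre protein so that the complex can be repaired, and Arabidopsis mutants that lack the main thylakoid forms have variegated leaves. The Clp protease is a soluble barrel of proteolytic ClpP and inactive ClpR subunits, fed by the chaperone ClpC in the plastid stroma or by ClpX in mitochondria, with ClpS as an adaptor that selects substrates. Deg proteases are serine enzymes that need no ATP and act on both faces of the thylakoid and in other compartments. Lon proteases are soluble ATP-dependent enzymes of the mitochondrial matrix and the peroxisome.

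Pods of A18-1, the golden line, turn from green to gold with maturity, whereas those of Renaya, the green line, stay green. Pod wall RNA of both lines, grown in a climate chamber without treatment, was sequenced at 10, 14 and 18 days after flowering (DAF), in 6 groups of 3 biological repeats. Neither the causal gene nor any other allele is given per library. Effects of that gene and of other genetic differences between the lines thus cannot be told apart. The sample labels name leaf tissue and the extraction protocol adipose, against the pod wall of the design text, which was followed. Green tissue genes were abundant in every library, at a summed 11643 to 72060 FPKM (fragments mapped to a gene, divided by its transcript length and the library total) over 76 genes. Seed genes, described as storage proteins, oleosin or late embryogenesis abundant, summed to 4899.7 to 11880.4 FPKM and were not absent. The 3 root genes, described as root hair defective or Casparian, summed to at most 81.3, and 3 pollen genes to at most 24.4. These lists were taken by words of the description alone, so their sums do not measure the share of a tissue. Total counts were 48757139 to 74377200 per library. At 18 DAF a library of each line stood apart. Golden 18 DAF replicate 2 had a photosystem and antenna sum of 73944 FPKM, against 33809.8 and 37707 in replicates 1 and 3. It also had the lowest correlation with a replicate (0.914, with replicate 1). Green 18 DAF replicate 3 had the lowest such sum, 13263 FPKM, against 25998 and 24364 in replicates 1 and 2. Values of 3 libraries are given below in the order of replicates 1, 2 and 3. Levels are in FPKM and fold changes are log2 of golden over green with a standard error (SE), from edgeR's quasi-likelihood test on the counts with Benjamini-Hochberg adjustment over 22805 genes. Genes were called at an adjusted p under 0.05, a value in brackets after a library left out is the adjusted p without it, and p-values measure only the spread between these libraries. Where losses of a call are listed by library, the call may also have been lost under another scaling, filter, model or tool.

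The lines were compared at each age to ask whether the protease genes differ between golden and green pods. At 10 DAF 15 of the 42 genes were higher and 8 lower in the golden line, and 54.8% of them were called, against 32.6% of all genes tested. At 14 DAF 18 were higher and 5 lower, again 54.8%, against 41.5% of all genes. At 18 DAF 11 were higher and 0 lower, or 26.2%, against 15.0% of all genes. The median log2 difference of the 42 genes was 0.17, 0.30 and 0.28 at the successive ages, while the median over all genes was 0.02, -0.01 and -0.02. The shares of all genes called higher were 17.1%, 20.4% and 7.99%, and the shares called lower were 15.5%, 21.2% and 6.99%. Without golden replicate 3 the count at 10 DAF was 6 higher and 3 lower. Leaving out green replicate 1, 2 or 3 gave 9, 7 or 9 higher at that age, and leaving out golden replicate 2 or green replicate 3 gave 4 lower in each case.

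The 18 DAF count rested on the libraries more than the others did. It was 1 higher without green replicate 3, 3 without golden replicate 2 or green replicate 1, 6 without golden replicate 3, 7 without green replicate 2, and 16 at most. With limma on log2(FPKM + 1) 1 gene was higher and 3 lower, and with DESeq2 15 were higher and 2 lower. Upper-quartile scaling gave 7 higher and 1 lower, and 2 genes were lower at an unadjusted p under 0.05 in the edgeR test. A fit of the 6 libraries of that age alone called 0 higher, so the calls at 18 DAF used the spread estimated over all 18 libraries.

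Across the ages 22 genes were higher in the golden line at 1 age or more, 8 were lower at 1 age or more, 0 did both and 12 were called at no age. Over all genes tested the shares with these patterns were 28.6%, 27.8%, 1.32% and 44.9%, against 52.4%, 19.0%, 0.00% and 28.6% of the 42. The 8 genes higher at all 3 ages were 3 thylakoid FtsH genes, 1 FtsH11 gene, 1 ClpC gene, 1 unspecified Clp gene, 1 gene of the L12/ClpS family and 1 Lon2 gene, a pattern found in 3.50% of all genes. The 5 genes lower at both 10 and 14 DAF were the core subunit P7, Deg10, Lon1 and 2 L12/ClpS genes, or 11.9% of the 42 against 11.4% of all genes. FtsH had 9 of 14 genes higher at 10 DAF, 7 at 14 DAF and 4 at 18 DAF, with 1, 0 and 0 lower. This was 71.4%, 50.0% and 28.6% called, against 32.6%, 41.5% and 15.0% of all genes. In bulk tissue, fewer cells of a type and less RNA per cell cannot be told apart.

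**Figure D1:**
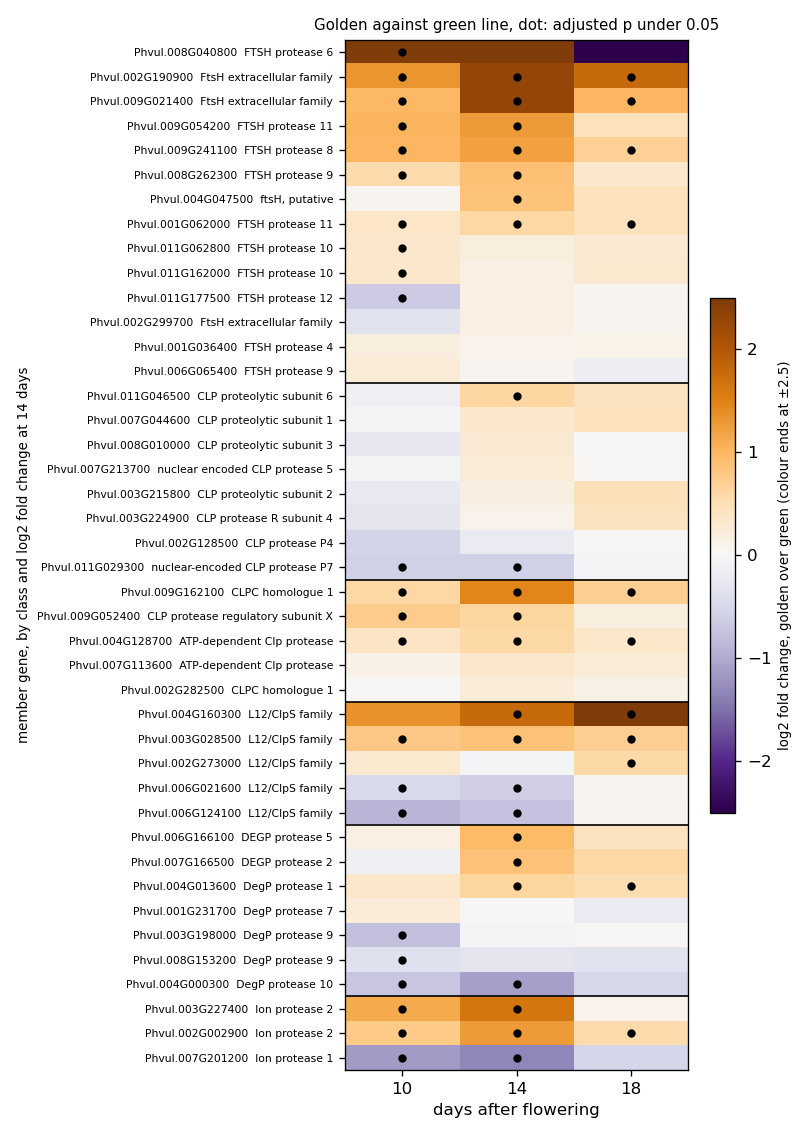
Log2 difference between the golden and green lines for each of the 42 protease genes (rows, grouped by class) at 10, 14 and 18 DAF (columns), with the colour scale ending at 2.5 in either direction and a dot where the gene was called at an adjusted p under 0.05. The dots mark 15 higher and 8 lower genes at 10 DAF, 18 and 5 at 14 DAF, and 11 and 0 at 18 DAF.

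The 3 FtsH genes with a photosystem II repair term other than FtsH6, called thylakoid FtsH genes here, were higher in golden pods at every age. Of the genes described only as FtsH extracellular protease family, Phvul.009G021400 and Phvul.002G190900 carry a thylakoid and a photosystem II repair term. Phvul.009G021400, the most abundant FtsH gene, read 103, 82.0 and 124 FPKM in the golden line at 10 DAF, 180.5, 209 and 116 at 14 DAF and 43.1, 111 and 67.0 at 18 DAF. Its green values at these ages were 50.6, 52.5 and 54.0, then 28.0, 31.1 and 43.5, then 35.4, 56.4 and 30.2 FPKM. Every golden library lay above every green one at 10 and 14 DAF, and at 18 DAF golden replicate 1 lay below green replicate 2. The difference was 1.98-fold at 10 DAF (log2 0.99, SE 0.32, adjusted p = 0.0297), 4.88-fold at 14 DAF (log2 2.29, SE 0.33, adjusted p = 0.000213) and 2.01-fold at 18 DAF (log2 1.01, SE 0.32, adjusted p = 0.0481). At 10 DAF it was not called without golden replicate 1 (0.0631), golden replicate 3 (0.114), green replicate 1 (0.0733), green replicate 2 (0.0873) or green replicate 3 (0.0756). At 18 DAF the same held without golden replicate 2 (0.224), golden replicate 3 (0.0599), green replicate 1 (0.127) or green replicate 3 (0.161), and likewise without golden 10 DAF replicates 1, 2 and 3, golden 14 DAF replicate 1, green 10 DAF replicates 1, 2 and 3 or green 14 DAF replicates 1 and 2 (0.0527 to 0.0640), and the log2 difference without golden replicate 2 was 0.54. In all, the 18 DAF call was lost in 18 of 27 alternatives.

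Phvul.002G190900 had golden values of 60.9, 49.9 and 81.4 FPKM at 10 DAF, 113, 144 and 64.7 at 14 DAF and 41.5, 102 and 59.9 at 18 DAF. In green pods the readings were 25.7, 25.7 and 26.0, then 16.0, 18.2 and 31.2, then 23.0, 28.1 and 14.8 FPKM. The lines did not overlap at any age, although golden 14 DAF replicate 3 stood well below its 2 fellow replicates. It was 2.49959-fold higher at 10 DAF (log2 1.32, SE 0.36, adjusted p = 0.0126), 4.89-fold at 14 DAF (log2 2.29, SE 0.37, adjusted p = 0.000422) and 3.42-fold at 18 DAF (log2 1.78, SE 0.37, adjusted p = 0.00515). Without golden replicate 3 the 10 DAF difference was not called (adjusted p = 0.0601). It was the 1 gene that limma on log2(FPKM + 1) called higher at 18 DAF. The level of Phvul.009G021400 relative to it was 1.62 ± 0.0932 (SD, n = 3) in golden and 2.03 ± 0.0590 in green pods at 10 DAF. This ratio was 1.61 ± 0.170 against 1.62 ± 0.198 at 14 DAF, and 1.08 ± 0.0393 against 1.86 ± 0.279 at 18 DAF.

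FtsH8 (Phvul.009G241100), in Arabidopsis an interchangeable partner of the main thylakoid FtsH form, showed a smaller difference in the same direction. It read 32.9, 28.5 and 32.4 FPKM in golden against 14.1, 16.4 and 16.3 in green pods at 10 DAF, 48.2, 41.8 and 33.1 against 14.0, 19.7 and 19.0 at 14 DAF, and 28.4, 40.0 and 33.8 against 28.1, 25.6 and 16.1 at 18 DAF. All golden values exceeded all green values of their age. The fold differences were 2.02 (log2 1.01, SE 0.20, adjusted p = 0.00174), 2.31 (log2 1.21, SE 0.20, adjusted p = 0.000458) and 1.61 (log2 0.69, SE 0.20, adjusted p = 0.0304). The first 2 were called under all 27 alternatives. The last was lost in 6, among them those without golden replicate 2 (0.105), green replicate 2 (0.0544) or green replicate 3 (0.115).

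Summed over these 3 thylakoid FtsH genes, golden pods held 198 ± 38.5 FPKM (SD, n = 3) against 93.8 ± 2.98 in green pods at 10 DAF, 317 ± 92.9 against 73.6 ± 18.3 at 14 DAF, and 176 ± 71.1 against 85.9 ± 24.5 at 18 DAF. Golden 18 DAF replicate 2 supplied 253 FPKM, against 113 and 161 in the others. The summed level of 89 photosystem and antenna genes was also higher in golden pods at each age. Its golden means were 45037, 46747 and 48487 FPKM at the successive ages, and the last was raised by replicate 2. Golden 18 DAF replicates 1 and 3, at 33809.8 and 37707 FPKM, lay below all golden 14 DAF libraries. By library that sum was 38806 to 49457 FPKM in golden and 27592 to 28929.7 in green pods at 10 DAF. It was 41329 to 50301 against 18686 to 22207 at 14 DAF, and 33809.8 to 73944 against 13263 to 25998 at 18 DAF. Of those 89 genes 25, 65 and 66 were higher in the golden line at the successive ages and 0 were lower. This was 28.1%, 73.0% and 74.2% called higher, against 17.1%, 20.4% and 7.99% of all genes. Seed genes summed to 10763 to 11880.4 FPKM in golden and 5731 to 6364 in green libraries at 10 DAF, with 14 of 108 tested genes higher and 12 lower. At 14 DAF they summed to 6163 to 7707 against 7976 to 10429.5 (11 higher and 27 lower), and at 18 DAF to 4899.7 to 8645 against 4900.3 to 7315 (5 higher and 4 lower). Of the seed genes tested 24.1%, 35.2% and 8.33% were called at the successive ages, against 32.6%, 41.5% and 15.0% of all genes. The part of either list in the FtsH differences was not tested. Of all 7 genes with the photosystem II repair term, which also include FtsH6 and Deg1, Deg2 and Deg5, 4 were higher at 10 DAF, 6 at 14 DAF and 4 at 18 DAF, with 0 lower at each age. These were 57.1%, 85.7% and 57.1% of the 7, against 17.1%, 20.4% and 7.99% of all genes called higher.

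**Figure D2:**
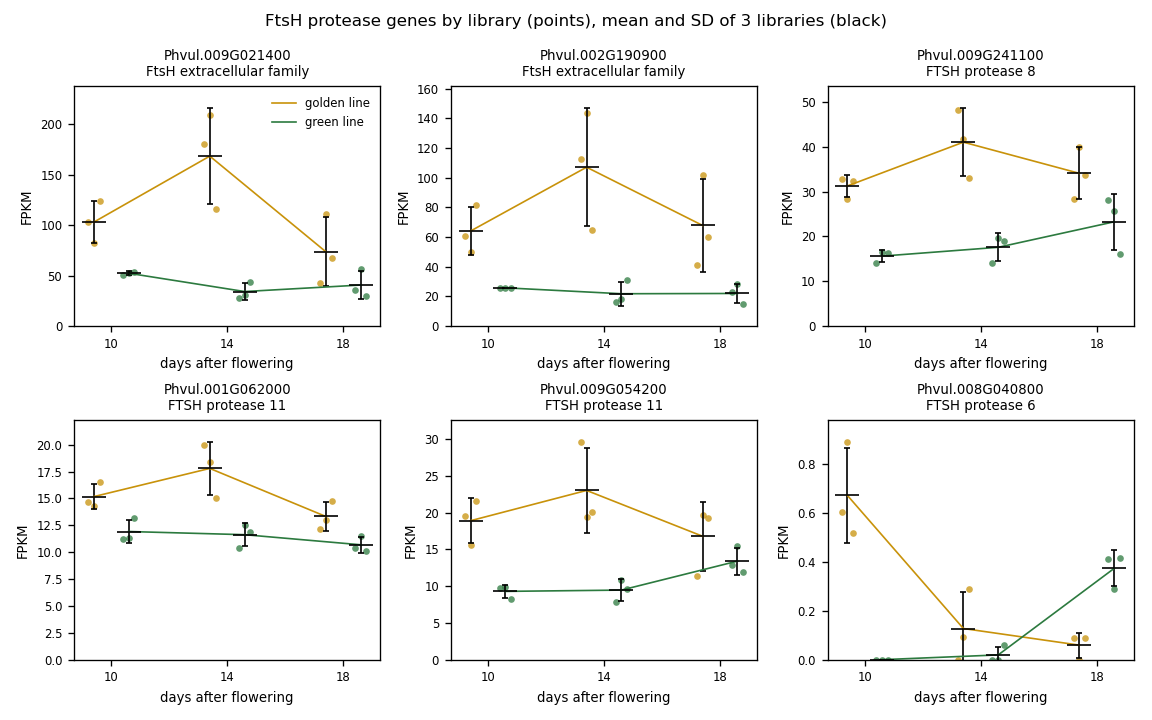
FPKM of 6 FtsH genes by library (points; gold for the golden line, green for the green line) against days after flowering, with the mean and SD of 3 libraries in black and means joined by lines. Phvul.009G021400, Phvul.002G190900 and FtsH8 have the higher mean in the golden line at each age, and their golden means are highest at 14 DAF. Changes within a line to or from 14 DAF were not tested. FtsH6 is near 0 except in golden pods at 10 DAF and green pods at 18 DAF.

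FtsH11, an envelope form needed for heat tolerance in Arabidopsis, was represented by a pair of genes that were both higher in the golden line. Phvul.009G054200 read 19.5, 15.6 and 21.6 FPKM in golden against 9.75, 9.85 and 8.26 in green pods at 10 DAF. At 14 DAF these were 29.7, 19.4 and 20.04 against 7.89, 10.9 and 9.63, and at 18 DAF 11.4, 19.7 and 19.3 against 12.9, 15.5 and 11.9 FPKM. The lines were apart at 10 and 14 DAF and overlapped at 18 DAF. It was 2.05-fold higher at 10 DAF (log2 1.03, SE 0.22, adjusted p = 0.00250) and 2.41-fold at 14 DAF (log2 1.27, SE 0.22, adjusted p = 0.000555), calls that held under all 27 alternatives, but was not called at 18 DAF (log2 0.45, SE 0.21, adjusted p = 0.175). Phvul.001G062000 differed less but at all 3 ages. Its golden and green values were 14.7, 14.3 and 16.5 against 11.2, 11.3 and 13.2 FPKM at 10 DAF, 19.9, 18.4 and 15.1 against 10.4, 12.5 and 11.9 at 14 DAF, and 12.2, 13.0 and 14.8 against 10.4, 11.5 and 10.1 at 18 DAF. No golden library fell within the green range at any age. The log2 differences were 0.36 (SE 0.11, adjusted p = 0.0268), 0.60 (SE 0.11, adjusted p = 0.00113) and 0.44 (SE 0.11, adjusted p = 0.0173). The 10 DAF call did not hold without golden replicate 3 (0.122), green replicate 1 (0.0801) or green replicate 2 (0.162), and likewise without golden 14 DAF replicate 2 or green 14 DAF replicate 3 (0.0585 to 0.0601), and the 18 DAF call not without golden replicate 3 (0.0526) or green replicate 3 (0.0602). In all, the 10 DAF call was lost in 8 of 27 alternatives and the 18 DAF call in 5.

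FtsH9 is another plastid form, and 1 of its 2 genes was called between the lines. Phvul.008G262300 read 27.1, 29.1 and 35.8 FPKM in golden and 22.3, 19.1 and 21.0 in green libraries at 10 DAF, 41.4, 33.2 and 26.9 against 18.0, 17.9 and 17.7 at 14 DAF, and 15.5, 27.9 and 27.6 against 18.9, 22.9 and 19.9 at 18 DAF. Golden libraries were above green ones at the first 2 ages. The gene was 1.86-fold higher at 14 DAF (log2 0.90, SE 0.20, adjusted p = 0.00307), and at 10 DAF its difference (log2 0.57, SE 0.20, adjusted p = 0.0428) was lost in 17 of 27 alternatives, among them those without golden replicate 2 (0.0659), golden replicate 3 (0.176), green replicate 1 (0.0578), green replicate 2 (0.176) or green replicate 3 (0.102), and likewise without golden 14 DAF replicates 1 and 2, green 14 DAF replicates 2 and 3 or green 18 DAF replicates 1 and 3 (0.0502 to 0.0730). Its copy Phvul.006G065400 was called at no age, at 26.9 ± 1.37 FPKM (SD, n = 3) in golden and 25.7 ± 2.20 in green pods at 14 DAF. Genes that share a description, such as these, the ClpC pair and the Lon2 pair, may share reads where their sequences are alike. Their sequences were not compared, and how the authors' counting treated shared reads is not given in the sources used here.

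Phvul.004G047500, described as a putative cell division protein FtsH, read 11.8, 12.8 and 10.4 FPKM in golden against 5.96, 5.91 and 7.26 in green pods at 14 DAF, with no overlap (log2 0.86, SE 0.16, adjusted p = 0.00117). Its values overlapped at 10 DAF (10.1, 8.89 and 9.47 against 8.63, 8.63 and 9.93) and at 18 DAF (6.16, 8.90 and 8.38 against 6.19, 7.71 and 5.01), where it was not called. FtsH12 (Phvul.011G177500), in Arabidopsis part of an envelope motor for protein import, was the 1 FtsH gene lower in the golden line. It read 16.5, 13.0 and 13.7 FPKM against 20.02, 21.7 and 26.6 at 10 DAF (log2 -0.65, SE 0.18, adjusted p = 0.0134), and was not called without golden replicate 2 (0.0562), golden replicate 3 (0.0537) or green replicate 3 (0.0684). At 14 DAF (11.8, 14.5 and 16.1 against 12.2, 12.7 and 13.0) and 18 DAF (8.10, 9.23 and 10.7 against 7.11, 12.7 and 9.86) the lines overlapped. The mitochondrial inner-membrane forms differed little. Both FtsH10 genes stood higher in golden pods at 10 DAF, at log2 0.33 for Phvul.011G062800 and 0.34 for Phvul.011G162000 (SE 0.10 and 0.11, adjusted p = 0.0249 and 0.0294). The first call was lost without golden replicate 3 (0.141), green replicate 1 (0.0923), green replicate 2 (0.0624) or green replicate 3 (0.0709), and likewise without golden 14 DAF replicate 2 or green 14 DAF replicate 3 (0.0540 to 0.0544). The other was lost without golden replicate 2 (0.0519), golden replicate 3 (0.133), green replicate 1 (0.0993), green replicate 2 (0.0605) or green replicate 3 (0.0887), and likewise without golden 14 DAF replicate 1 or green 14 DAF replicate 3 (0.0556 to 0.0590). In all, the first call was lost in 9 of 27 alternatives and the other in 11. FtsH4 (Phvul.001G036400) and Phvul.002G299700, the third gene of the extracellular protease family, were called at no age.

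FtsH6 (Phvul.008G040800; chromosome 8, positions 3369192 to 3372204 in the authors' table, whose genome build is not given in the sources used here) was the least abundant gene of the set. In Arabidopsis this thylakoid form is reported to degrade a plastid small heat shock protein after heat. Golden libraries held 79, 115 and 72 counts at 10 DAF, 0, 15 and 36 at 14 DAF and 14, 0 and 14 at 18 DAF. Green libraries held 0, 0 and 0 counts at 10 DAF, 0, 0 and 7 at 14 DAF and 47, 41 and 57 at 18 DAF. The highest values thus came from golden pods at the first age and from green pods at the last, and those groups did not overlap with the other line. With the green group set to a floor of 3 counts in all, which covers counting error only, golden pods were at least 85.3-fold higher than green pods at 10 DAF (adjusted p = 0.00790). Green pods at 18 DAF were at least 47.4-fold higher than green pods at 10 DAF (adjusted p = 0.0110). The gene was not called between the lines at 14 DAF (adjusted p = 0.186) or at 18 DAF (adjusted p = 0.282). In FPKM it reached at most 0.892, against at least 14.0 for FtsH8 in every library, and it was the only one of the 42 genes with coordinates in the table.

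Among the chaperones that feed the Clp core, 1 of the 2 ClpC genes was higher in golden pods at every age and the other was called at none. Phvul.009G162100, a ClpC homologue and the most abundant gene among the ClpC, ClpX and unspecified Clp genes, read 125, 109 and 134 FPKM in the golden line at 10 DAF, 199.9, 195 and 127 at 14 DAF and 90.1, 158 and 121 at 18 DAF. Green pods gave 79.1, 81.4 and 83.3 FPKM, then 61.4, 58.0 and 68.4, then 82.9, 91.1 and 72.8. The ranges were separate at 10 and 14 DAF and overlapped at 18 DAF through golden replicate 1. Golden pods were 1.52-fold higher at 10 DAF (log2 0.60, SE 0.20, adjusted p = 0.0350), 2.74-fold at 14 DAF (log2 1.46, SE 0.21, adjusted p = 0.000180) and 1.65-fold at 18 DAF (log2 0.72, SE 0.20, adjusted p = 0.0279). The 10 DAF call was lost without golden replicate 1 (0.0797), golden replicate 3 (0.118), green replicate 1 (0.0808), green replicate 2 (0.114) or green replicate 3 (0.0839), and likewise without golden 14 DAF replicate 2 or green 14 DAF replicate 3 (0.0530 to 0.0567), and the 18 DAF call without golden replicate 2 (0.106), green replicate 1 (0.0609), green replicate 2 (0.0504) or green replicate 3 (0.0956). Phvul.002G282500, also described as ClpC homologue, was called at no age, with 35.6 ± 0.763 FPKM in golden and 30.0 ± 2.44 in green pods at 14 DAF (log2 0.23, SE 0.09, adjusted p = 0.0611). The ratio of the first ClpC gene to the second ran from 3.04 to 5.70 over the 9 golden libraries and from 1.87 to 3.12 over the 9 green ones.

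ClpX (Phvul.009G052400), the mitochondrial unfoldase, differed at the younger ages. Its golden values of 21.2, 18.8 and 23.7 FPKM at 10 DAF and 29.5, 28.1 and 24.3 at 14 DAF all exceeded the green values of 12.2, 12.8 and 13.1 at 10 DAF and 14.5, 18.8 and 19.3 at 14 DAF. At 18 DAF the lines overlapped, at 21.8, 21.6 and 24.8 against 21.7, 20.8 and 22.6 FPKM. It was 1.68-fold higher at 10 DAF (log2 0.75, SE 0.11, adjusted p = 0.000297) and 1.54-fold at 14 DAF (log2 0.63, SE 0.11, adjusted p = 0.000808), both under all 27 alternatives, and not called at 18 DAF (log2 0.19, SE 0.11, adjusted p = 0.302). Of the 2 genes described only as ATP-dependent Clp protease, which carry a mitochondrial term, Phvul.004G128700 was higher at all 3 ages, by 0.37, 0.58 and 0.34 on the log2 scale (SE 0.11 at each age; adjusted p = 0.0185, 0.00114 and 0.0497). The 10 DAF call was lost without golden replicate 1 (0.0657), golden replicate 3 (0.0604), green replicate 2 (0.119) or green replicate 3 (0.0745). The 18 DAF call was lost in 21 of 27 alternatives, among them those without golden replicate 2 (0.0656), golden replicate 3 (0.174), green replicate 1 (0.130), green replicate 2 (0.0520) or green replicate 3 (0.138), and likewise without golden 10 DAF replicates 1, 2 and 3, golden 14 DAF replicate 2, green 10 DAF replicates 1, 2 and 3 or green 14 DAF replicates 1, 2 and 3 (0.0535 to 0.0671). Phvul.007G113600 was called at no age.

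**Figure D3:**
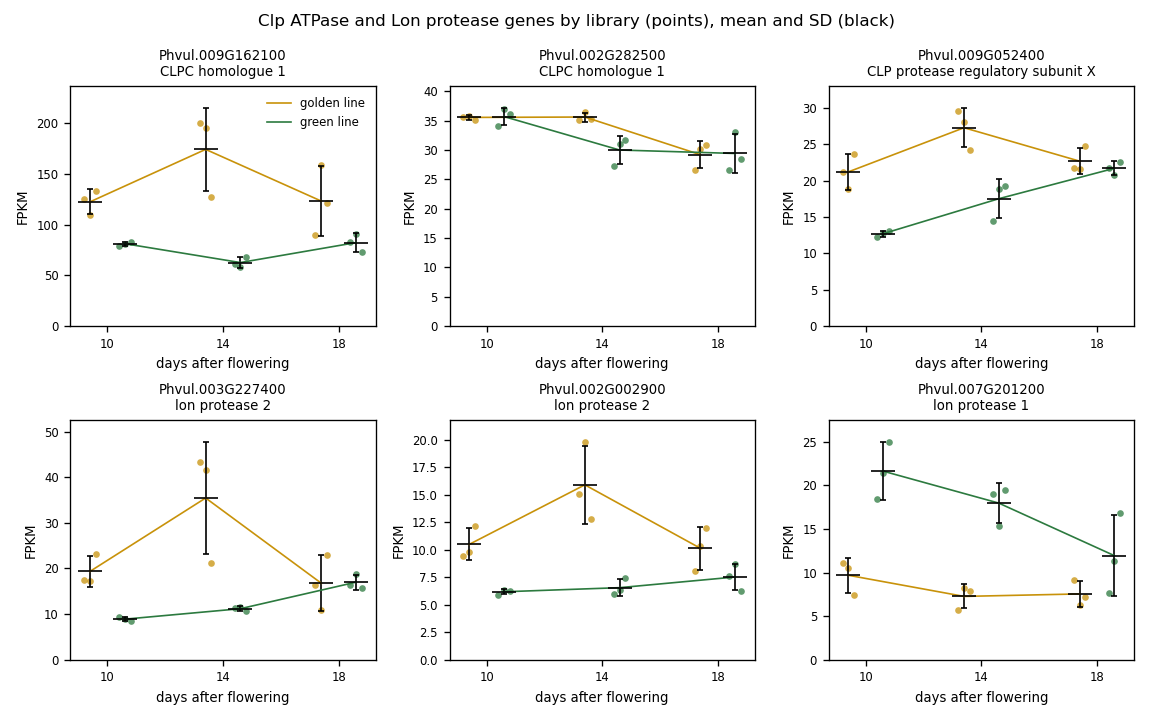
FPKM of 2 ClpC genes, ClpX, 2 Lon2 genes and Lon1 by library (points) against days after flowering, with the mean and SD of 3 libraries in black. Phvul.009G162100 and both Lon2 genes have their highest golden mean at 14 DAF, where changes within a line to or from that age were not tested. ClpX climbs in green pods to meet the golden line at 18 DAF, and Lon1 is lower in golden pods at 10 and 14 DAF.

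Few of the 8 core subunit genes were called between the lines. At 10 DAF 0 were higher and 1 lower (median log2 -0.24, and all 8 below 0), at 14 DAF 1 was higher and 1 lower (median 0.21), and at 18 DAF 0 were called in either direction (median 0.22). Proteolytic subunit 6 (Phvul.011G046500) was the gene higher at 14 DAF. It read 47.8, 56.4 and 57.6 FPKM in golden and 36.0, 33.4 and 34.7 in green libraries, with no overlap (log2 0.61, SE 0.15, adjusted p = 0.00550). At 10 DAF the order was the opposite, 47.4, 46.2 and 47.6 against 52.0, 50.1 and 52.9 FPKM, without a call (log2 -0.13, SE 0.15, adjusted p = 0.552). At 18 DAF the values were 27.4, 43.4 and 35.5 against 29.1, 32.6 and 26.1 and overlapped.

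Subunit P7 (Phvul.011G029300), whose Arabidopsis counterpart forms the mitochondrial Clp core, was the core gene lower in the golden line. Golden libraries read 37.5, 34.4 and 26.4 FPKM at 10 DAF and 25.9, 28.9 and 31.7 at 14 DAF, all below the green values of 43.2, 47.1 and 59.5 at 10 DAF and 43.9, 38.8 and 46.3 at 14 DAF. By 18 DAF the ranges overlapped, at 33.5, 28.5 and 27.1 against 29.7, 32.6 and 39.5. The log2 difference was -0.60 at 10 DAF (SE 0.17, adjusted p = 0.0160) and -0.59 at 14 DAF (SE 0.17, adjusted p = 0.0128). The first was not called without golden replicate 3 (0.0849) or green replicate 3 (0.0863). ClpX, which pairs with that core, was higher at both of those ages. The most abundant core gene, nuclear encoded Clp protease 5 (Phvul.007G213700), was called at no age, with 114, 115 and 99.7 FPKM in golden and 104, 119 and 123 in green pods at 10 DAF, 88.0, 111 and 118 against 95.0, 82.9 and 84.8 at 14 DAF, and 54.0, 92.3 and 59.2 against 56.4, 90.3 and 78.3 at 18 DAF.

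Over pod age the calls among the core genes came from the green line. In golden pods 0 of the 8 were called from 10 to 18 DAF (median log2 -0.19), against 20.7% of all genes. In green pods 6 of the 8 fell (median -0.66), where 15.6% of all genes fell. Subunit P4 (Phvul.002G128500) fell from 78.1, 82.6 and 93.5 to 28.3, 41.5 and 46.4 FPKM (log2 -1.07, SE 0.24, adjusted p = 0.00382), with every later library below every earlier one. ClpR4 (Phvul.003G224900), an inactive ring subunit, fell from 53.1, 54.8 and 53.6 to 24.8, 32.4 and 26.8 FPKM (log2 -0.88, SE 0.16, adjusted p = 0.000860). Proteolytic subunits 2, 3 and 6 and P7 also fell, by 0.81, 0.48, 0.76 and 0.49 on the log2 scale. The fall of subunit 3 (adjusted p = 0.0369) was not called without any 1 of the 6 green 10 or 18 DAF libraries (0.0533 to 0.126). That of P7 (adjusted p = 0.0376) was not called without green 10 DAF replicate 3 (0.176), green 18 DAF replicate 1 (0.139) or green 18 DAF replicate 2 (0.106). In golden pods the summed core level was 461 ± 26.2 FPKM at 10 DAF and 345 ± 80.3 at 18 DAF, the latter from 291, 437 and 308 in its libraries. Green pods went from 548 ± 33.6 to 334 ± 35.5 FPKM. The difference between the lines in this change was itself not called for any of the 8 genes, although all 8 estimates were above 0 (median log2 0.54), so an age effect particular to green pods was not shown.

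**Figure D4:**
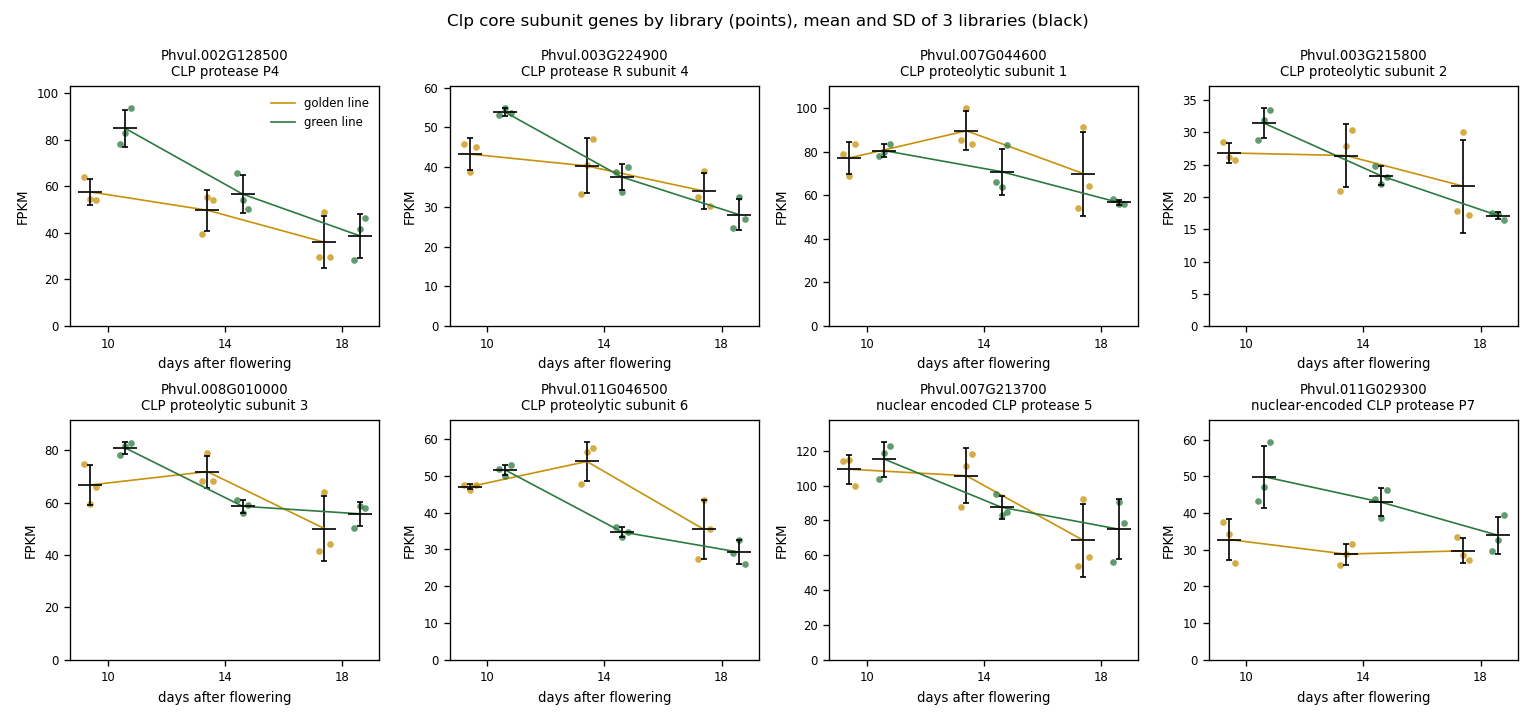
FPKM of the 8 Clp core subunit genes by library (points) against days after flowering, with the mean and SD of 3 libraries in black. The green mean is lower at 18 than at 10 DAF in each panel, with the fall called in 6, and the golden libraries at 18 DAF spread widely, with replicate 2 highest in 7 panels.

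Within the L12/ClpS family the direction differed between genes. Phvul.003G028500 and Phvul.004G160300, which carry a stroma term and no ribosome term, were higher in the golden line, while 2 of the 3 with a ribosome term were lower. Phvul.003G028500, the most abundant gene of all 42, read 103, 100.02 and 129.9 FPKM against 64.7, 59.5 and 70.6 at 10 DAF, 155, 166 and 137 against 58.8, 94.4 and 96.2 at 14 DAF, and 125, 217 and 143 against 119, 97.2 and 108 at 18 DAF. Golden libraries lay above green ones throughout. It was 1.72-fold (log2 0.78, SE 0.22, adjusted p = 0.0133), 1.82-fold (log2 0.87, SE 0.22, adjusted p = 0.00574) and 1.64-fold higher (log2 0.72, SE 0.22, adjusted p = 0.0371). The 10 DAF call was lost without golden replicate 3 (0.0667) or green replicate 2 (0.0660) and the 18 DAF call without golden replicate 2 (0.158), green replicate 1 (0.0519), green replicate 2 (0.122) or green replicate 3 (0.0845).

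Phvul.004G160300 spread widely at 18 DAF. Golden libraries read 52.0, 64.6 and 78.8 FPKM at 10 DAF and 71.1, 88.1 and 101.1 at 14 DAF, against 25.9, 24.0 and 28.3 at 10 DAF and 18.3, 25.3 and 32.2 at 14 DAF in green pods, with no overlap. At 18 DAF the golden values were 26.8, 247 and 47.1, of which replicate 2 stood far above the others, and the green values 16.5, 35.9 and 12.5 overlapped with them. The gene was 3.42-fold higher at 14 DAF (log2 1.78, SE 0.62, adjusted p = 0.0326) and 5.65-fold at 18 DAF (log2 2.498, SE 0.64, adjusted p = 0.0162), and not called at 10 DAF (log2 1.33, SE 0.61, adjusted p = 0.109). The 14 DAF call was lost without golden replicate 2 (0.0652), golden replicate 3 (0.0711), green replicate 1 (0.103), green replicate 2 (0.0783) or green replicate 3 (0.0564), and the 18 DAF call without golden replicate 2 (0.120), green replicate 1 (0.0577) or green replicate 3 (0.0686).

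Of the genes with a ribosome term, Phvul.006G124100 read 16.5, 17.8 and 14.4 FPKM in golden against 25.3, 31.6 and 33.8 in green pods at 10 DAF, 15.3, 14.6 and 18.0 against 24.0, 26.6 and 28.8 at 14 DAF, and 23.2, 18.6 and 17.7 against 22.3, 17.0 and 22.5 at 18 DAF. It was lower in the golden line without overlap at the first 2 ages (log2 -0.88, SE 0.16, adjusted p = 0.00108 at 10 DAF; log2 -0.74, SE 0.16, adjusted p = 0.00257 at 14 DAF), under all 27 alternatives. Phvul.006G021600 likewise read 33.7, 30.4 and 26.7 against 40.9, 44.8 and 43.0, 22.4, 23.6 and 31.3 against 36.0, 38.3 and 43.7, and 37.4, 30.1 and 26.9 against 36.3, 30.4 and 33.0 FPKM. Its golden values were the lower ones at 10 DAF (log2 -0.49, SE 0.17, adjusted p = 0.0360) and 14 DAF (log2 -0.62, SE 0.17, adjusted p = 0.00889), the former not called without golden replicate 2 (0.0842), golden replicate 3 (0.139), green replicate 1 (0.0670), green replicate 2 (0.0659) or green replicate 3 (0.0809). Phvul.002G273000 was higher in golden pods at 18 DAF and called at no other age (log2 0.58, SE 0.18, adjusted p = 0.0467), a call lost in 19 of 27 alternatives, among them those without golden replicate 1 (0.0649), golden replicate 2 (0.130), golden replicate 3 (0.0521), green replicate 1 (0.0660), green replicate 2 (0.130) or green replicate 3 (0.111), and likewise without golden 10 DAF replicates 1, 2 and 3, green 10 DAF replicates 1, 2 and 3 or green 14 DAF replicate 2 (0.0524 to 0.0625). With the 3 ribosome-term genes set aside, 15 of 39 genes were higher and 6 lower at 10 DAF, 18 and 3 at 14 DAF, and 10 and 0 at 18 DAF.

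Deg1, Deg5 and Deg2, the thylakoid Deg proteases that cut photosystem II proteins in Arabidopsis, were all higher in golden pods at 14 DAF and none of the 3 was called at 10 DAF. Deg1 (Phvul.004G013600), a lumenal form, read 22.7, 21.0 and 24.0 FPKM against 18.4, 16.7 and 18.3 at 10 DAF (log2 0.35, SE 0.15, adjusted p = 0.0766), 26.3, 29.5 and 24.8 against 15.0, 18.0 and 18.3 at 14 DAF (log2 0.64, SE 0.15, adjusted p = 0.00338), and 20.4, 29.6 and 26.7 against 17.8, 23.3 and 17.7 at 18 DAF (log2 0.52, SE 0.15, adjusted p = 0.0268). Its lines were separate at the first 2 ages and overlapped at 18 DAF, where the call was lost without golden replicate 2 (0.0952), golden replicate 3 (0.0518), green replicate 1 (0.0875) or green replicate 3 (0.0960). Deg5 (Phvul.006G166100), a lumenal partner of Deg1, read 37.9, 25.4 and 23.5 FPKM in golden and 12.9, 14.6 and 16.3 in green pods at 14 DAF. That was a 1.96-fold difference (log2 0.97, SE 0.19, adjusted p = 0.00145) with no overlap. Overlapping values were seen at 10 DAF (17.3, 19.7 and 20.8 against 18.0, 16.3 and 18.2) and 18 DAF (18.6, 19.8 and 30.9 against 22.3, 16.8 and 16.6).

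Deg2 (Phvul.007G166500), on the stromal face, read 15.7, 12.9 and 13.7 FPKM in golden and 14.3, 15.4 and 16.0 in green pods at 10 DAF, and 11.1, 15.1 and 15.3 against 7.66, 7.34 and 7.30 at 14 DAF. At 18 DAF the values were 4.98, 11.2 and 7.65 against 4.65, 7.40 and 5.31. The lines were apart at 14 DAF alone (log2 0.88, SE 0.25, adjusted p = 0.0114). From 10 to 18 DAF Deg2 fell 2.53-fold in green pods (log2 -1.34, SE 0.25, adjusted p = 0.00111) and was not called in golden pods (log2 -0.64, SE 0.25, adjusted p = 0.0794). The difference between these changes was not called (adjusted p = 0.213).

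The remaining Deg genes went the other way or differed little. Deg10 (Phvul.004G000300), a mitochondrial form in Arabidopsis, read 2.88, 2.42 and 2.09 FPKM in golden and 4.04, 4.48 and 3.67 in green pods at 10 DAF, 1.92, 1.66 and 1.63 against 3.57, 4.19 and 3.33 at 14 DAF, and 1.58, 1.47 and 1.25 against 2.06, 2.14 and 2.53 at 18 DAF. Every golden library lay below every green one of its age. It was 1.64-fold lower at 10 DAF (log2 -0.71, SE 0.21, adjusted p = 0.0159) and 2.16-fold lower at 14 DAF (log2 -1.11, SE 0.21, adjusted p = 0.000956), and not called at 18 DAF (log2 -0.51, SE 0.21, adjusted p = 0.111). The 10 DAF call was lost without golden replicate 3 (0.0779). Deg9 had 2 genes, both lower at 10 DAF. Phvul.003G198000 read 3.68, 3.93 and 4.30 FPKM against 6.39, 7.41 and 6.61 there (log2 -0.77, SE 0.23, adjusted p = 0.0209), a call lost without golden replicate 1 (0.0674), golden replicate 2 (0.0588) or green replicate 2 (0.0582). It overlapped at 14 DAF (6.21, 3.57 and 5.08 against 5.06, 5.21 and 4.80) and at 18 DAF (6.82, 3.36 and 6.12 against 5.46, 5.15 and 6.55). The other, Phvul.008G153200, was lower by 0.35 on the log2 scale at 10 DAF (SE 0.12, adjusted p = 0.0382), and not without golden replicate 2 (0.0717), golden replicate 3 (0.159), green replicate 1 (0.0969) or green replicate 3 (0.116).

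Deg7 (Phvul.001G231700), the most abundant Deg gene, was called at no age between the lines, with 29.8, 32.3 and 28.4 FPKM against 25.5, 26.7 and 25.7 at 10 DAF, 28.9, 27.2 and 24.9 against 29.6, 26.4 and 24.4 at 14 DAF and 18.5, 17.5 and 22.6 against 23.5, 27.7 and 22.6 at 18 DAF. The golden libraries all exceeded the green ones at 10 DAF and none did at 18 DAF, and within the golden line the gene fell 1.37-fold between those ages (log2 -0.45, SE 0.12, adjusted p = 0.0148). Without golden 10 DAF replicate 2 this fall had an adjusted p of 0.0627. The summed Deg level was 104 ± 0.442 FPKM in golden and 102 ± 1.60 in green pods at 10 DAF. It was 115 ± 8.54 against 88.8 ± 0.284 at 14 DAF, and 91.6 ± 13.0 against 88.3 ± 5.72 at 18 DAF (SD, n = 3).

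**Figure D5:**
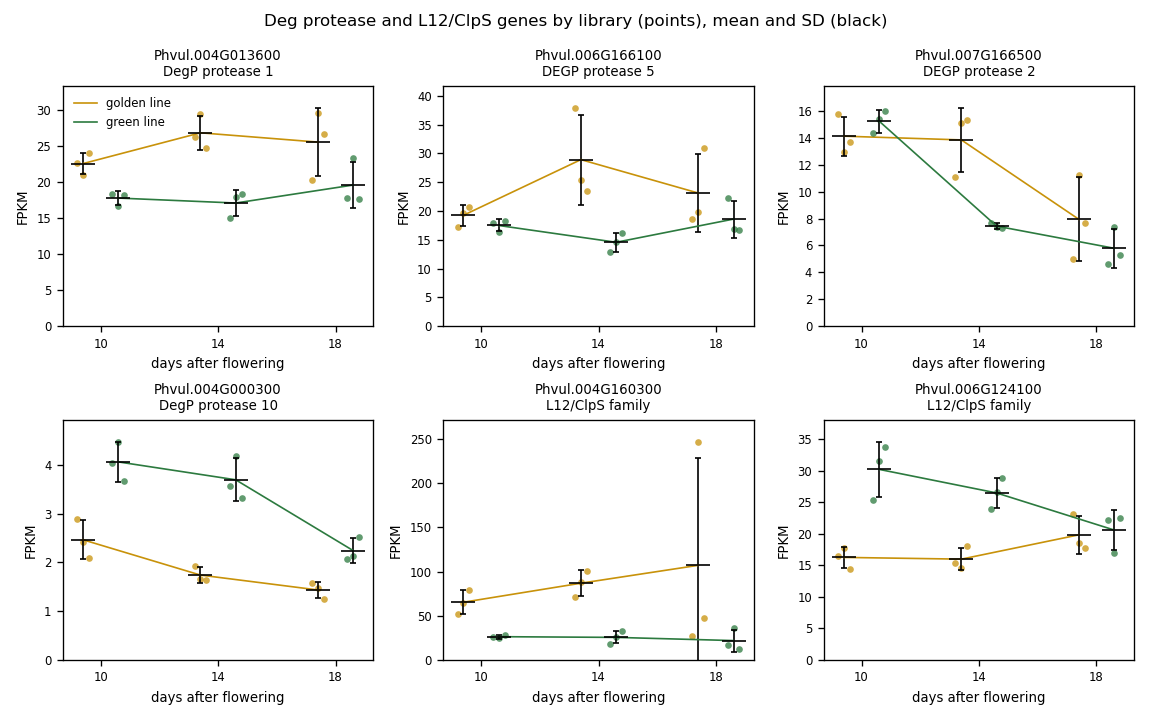
FPKM of Deg1, Deg5, Deg2, Deg10 and 2 L12/ClpS genes by library (points) against days after flowering, with the mean and SD of 3 libraries in black (an SD bar that would pass below 0 ends at the axis). The thylakoid Deg genes are higher in golden pods at 14 DAF, Deg10 and Phvul.006G124100 are lower there, and 1 golden library at 18 DAF stands far above the rest for Phvul.004G160300.

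The Lon genes divided by compartment. Lon1 (Phvul.007G201200), the mitochondrial form, read 11.1, 10.5 and 7.42 FPKM in golden and 18.4, 21.5 and 25.02 in green pods at 10 DAF, 5.67, 8.21 and 7.91 against 19.1, 15.4 and 19.5 at 14 DAF, and 9.18, 6.22 and 7.24 against 7.60, 11.3 and 16.9 at 18 DAF. The lines were fully apart at 10 and 14 DAF and overlapped at 18 DAF. Lon1 was 2.22-fold lower at 10 DAF (log2 -1.15, SE 0.26, adjusted p = 0.00442) and 2.51-fold lower at 14 DAF (log2 -1.33, SE 0.26, adjusted p = 0.00144), under all 27 alternatives, and not called at 18 DAF (log2 -0.54, SE 0.26, adjusted p = 0.186).

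Both genes for the peroxisomal form, Lon2, were higher in the golden line. Phvul.003G227400 read 17.6, 17.3 and 23.2 FPKM against 9.40, 8.86 and 8.38 at 10 DAF, 43.5, 41.7 and 21.2 against 11.3, 11.6 and 10.6 at 14 DAF, and 16.4, 10.8 and 23.1 against 16.5, 18.9 and 15.7 at 18 DAF. The golden values were above all green ones at the first 2 ages, with golden 14 DAF replicate 3 near the 10 DAF level, and mixed with them at 18 DAF. The gene was 2.19-fold higher at 10 DAF (log2 1.13, SE 0.25, adjusted p = 0.00326), 3.12-fold at 14 DAF (log2 1.64, SE 0.25, adjusted p = 0.000264) and not called at 18 DAF (log2 0.09, SE 0.24, adjusted p = 0.850). Phvul.002G002900 read 9.47, 9.84 and 12.2 against 5.90, 6.37 and 6.26, 15.1, 19.8 and 12.8 against 5.96, 6.31 and 7.40, and 8.10, 10.4 and 11.9 against 7.62, 8.70 and 6.26 FPKM at the 3 ages. It was 1.71-fold (log2 0.77, SE 0.17, adjusted p = 0.00341), 2.40-fold (log2 1.26, SE 0.17, adjusted p = 0.000128) and 1.47-fold higher (log2 0.56, SE 0.17, adjusted p = 0.0382), with overlap at 18 DAF. The calls at 10 and 14 DAF of both copies held under all 27 alternatives. The 18 DAF call of Phvul.002G002900 was lost without golden replicate 2 (0.0896), golden replicate 3 (0.121), green replicate 1 (0.0745) or green replicate 3 (0.142), and likewise without green 10 DAF replicates 1 and 3 or green 14 DAF replicate 2 (0.0503 to 0.0531).

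Pod age was compared within each line to ask how the genes moved as pods matured, and these comparisons share their 10 and 18 DAF libraries with those between the lines. In golden pods 3 of the 42 genes were higher at 18 than at 10 DAF and 1 was lower, against 20.7% of all genes called (11.3% higher and 9.37% lower). In green pods 8 rose and 13 fell, against 34.9% of all genes (19.3% and 15.6%). With limma on log2(FPKM + 1) the golden counts were 1 and 10 and the green counts 5 and 17, and with DESeq2 they were 7 and 2, and 8 and 17. Leaving out 1 library moved the golden counts between 1 and 4 higher and 0 and 7 lower, and the green counts between 4 and 8 and between 8 and 16. The golden rises were of Phvul.002G273000 (log2 0.90, SE 0.18, adjusted p = 0.00442) and Phvul.003G028500 (log2 0.74, SE 0.22, adjusted p = 0.0271) of the L12/ClpS family and of FtsH10 gene Phvul.011G062800 (log2 0.31, SE 0.10, adjusted p = 0.0494). The second was lost without golden 10 DAF replicate 1 (0.0917), golden 10 DAF replicate 2 (0.0996) or golden 18 DAF replicate 2 (0.118). The third was lost in 21 of 27 alternatives, among them those without golden 10 DAF replicate 1 (0.145), golden 10 DAF replicate 2 (0.193), golden 18 DAF replicate 1 (0.128) or golden 18 DAF replicate 3 (0.0931), and likewise without golden 14 DAF replicates 1 and 2, green 10 DAF replicates 1, 2 and 3, green 14 DAF replicates 1, 2 and 3 or green 18 DAF replicates 1 and 2 (0.0521 to 0.0681).

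More of the genes were called over age in green pods. ClpX rose 1.78-fold (log2 0.84, SE 0.11, adjusted p = 0.000138) and Lon2 gene Phvul.003G227400 1.99-fold (log2 0.99, SE 0.25, adjusted p = 0.00637), and both calls held under all 27 alternatives. FtsH12 fell 2.21-fold (log2 -1.15, SE 0.18, adjusted p = 0.000385), and Phvul.002G299700 of the extracellular protease family fell 1.59-fold (log2 -0.67, SE 0.16, adjusted p = 0.00456). Deg10 fell 1.73-fold (log2 -0.79, SE 0.21, adjusted p = 0.00840). Lon1 fell 1.73-fold (log2 -0.79, SE 0.26, adjusted p = 0.0292), a call lost without green 10 DAF replicate 3 (0.104), green 18 DAF replicate 1 (0.125) or green 18 DAF replicate 2 (0.0829). FtsH8 rose 1.55-fold (log2 0.64, SE 0.20, adjusted p = 0.0225), not without green 10 DAF replicate 1 (0.0738), green 10 DAF replicate 2 (0.0653), green 10 DAF replicate 3 (0.0540), green 18 DAF replicate 1 (0.114) or green 18 DAF replicate 2 (0.0613), whereas Phvul.009G021400 and Phvul.002G190900 were not called over age in either line.

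Whether the 2 lines changed unequally was tested by the interaction, the golden change from 10 to 18 DAF minus the green one. It was called above 0 for 1 gene and below 0 for 2 of the 42, against 9.90% of all genes in either direction (3.77% above and 6.13% below). ClpX, called over age in green and not in golden pods, was at -0.56 (SE 0.16, adjusted p = 0.0393), and Phvul.006G124100 at 0.96 (SE 0.23, adjusted p = 0.0184). FtsH6, high in young golden and old green pods, was the third (adjusted p = 0.0180). The ClpX call was lost in 17 of 27 alternatives, among them those without golden 10 DAF replicate 1 (0.0719), golden 10 DAF replicate 3 (0.108), golden 18 DAF replicate 1 (0.0723), golden 18 DAF replicate 3 (0.0588), green 10 DAF replicate 1 (0.0746), green 10 DAF replicate 2 (0.116), green 10 DAF replicate 3 (0.0805), green 18 DAF replicate 1 (0.0761) or green 18 DAF replicate 3 (0.0664), and likewise without golden 14 DAF replicates 1 and 2 or green 14 DAF replicate 3 (0.0598 to 0.0750). That of Phvul.006G124100 was lost without golden 10 DAF replicate 3 (0.0542) or green 10 DAF replicate 3 (0.0569). For the change from 10 to 14 DAF, a comparison added after the data had been seen, edgeR called 0 genes in either direction, against 1.15% of all genes. At an unadjusted p under 0.05 there were 10 above 0 and 1 below, DESeq2 called 4 and 0, and limma on log2(FPKM + 1) called 0 and 1. Phvul.009G021400, whose difference between the lines was 1.98-fold at 10 DAF and 4.88-fold at 14 DAF, had an interaction of 1.30 (SE 0.45, adjusted p = 0.176).

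Genes that work beside these proteases were counted in the same comparisons. Prohibitins, inner-membrane ring proteins that bind mitochondrial FtsH complexes, had 3 of 3 genes lower in golden pods at 10 DAF (median log2 -1.12), 3 of 3 at 14 DAF (-1.40) and 1 of 3 at 18 DAF (-0.43). Their summed level was 112 ± 12.6 FPKM in golden and 238 ± 17.2 in green pods at 10 DAF, and 86.1 ± 27.2 against 209 ± 21.5 at 14 DAF (SD, n = 3). Other organelle proteases and processing peptidases had 7 of 29 tested genes higher and 4 lower at 10 DAF, 9 and 9 at 14 DAF, and 5 and 1 at 18 DAF. This was 37.9%, 62.1% and 20.7% called, where 32.6%, 41.5% and 15.0% of all genes were. Clp-related genes were taken by descriptions naming ClpB, HSP101, casein lytic proteinase or a Clp amino-terminal domain, and need not share a function. They had 4 of 19 higher and 6 lower at 10 DAF, 3 and 6 at 14 DAF, and 1 and 0 at 18 DAF (52.6%, 47.4% and 5.26% called). Organelle chaperonins and plastid import genes had 2 of 19 higher and 5 lower at 10 DAF, 6 and 3 at 14 DAF, and 4 and 0 at 18 DAF (36.8%, 47.4% and 21.1% called). No test of these lists was made.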

How the data were processed

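RNA-seq of 18 libraries was analysed. One deposited table holds, for each gene and library, an estimated count and an FPKM value computed by the authors, per its file headers. All estimated counts deposited were whole. The aligner, counting program, build and strand setting are not given in the labels or headers, so reads of antisense or overlapping genes could not be told apart. 635 genes without a gene name, holding 2.20% to 3.97% of the counts of a library, were kept because they carry a gene identifier.

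All 18 libraries were fitted in 1 quasi-likelihood model with 1 mean per group (edgeR 4.0.16 in R 4.3.3, expression filter, TMM scaling, 12 residual degrees of freedom). Two-sided p-values were adjusted over 22805 genes. SEs were computed from the log2 fold change and the F statistic. The fit was also run on counts simulated from its own dispersions, a check of the code that cannot test for outlying libraries. The 27 alternatives covered scaling, filtering, a replicate block, the libraries compared alone, limma 3.58.1 on log2(FPKM + 1) and log2(FPKM + 0.1), DESeq2 1.42.0, and each library left out. Replicates differed by more than sampling noise (chi-square of at least 51.3 per gene).

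The genes and lists were chosen with earlier results of these data known. Values in every library are given for up to 25 members called in a line comparison or the interaction, by the largest change, and for the most abundant member of each class. The reference table matched 0 of the members' identifiers, so no sequence is shown. With library totals of 48757139 to 74377200 counts, the spread between replicates was taken as the main limit on precision for most members. Counting error adds more for the members with the fewest counts, FtsH6 and Deg10, the latter at 158 to 485 per library. The part of counting in the spread was not tested.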

Additional observations from a re-analysis of the deposited data

Results flagged for a closer look

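The lines changed unequally from 10 to 18 DAF in 3 of the 42 genes, by the test of the interaction. This was 7.14% of the 42, no more than the 9.90% of all genes tested. ClpX (Phvul.009G052400) had a log2 interaction of -0.56 (edgeR, adjusted p = 0.0393), which was lost in 17 of 27 alternatives. Phvul.006G124100 of the L12/ClpS family, with a ribosome term, had an interaction of 0.96 (adjusted p = 0.0184), lost without golden 10 DAF replicate 3 (0.0542) or green 10 DAF replicate 3 (0.0569). FtsH6 (Phvul.008G040800) had a fitted interaction of -11.98 (adjusted p = 0.0180), a value that depends on the prior count because all 3 green 10 DAF libraries were at 0, and that is no bound.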

How the results depend on the processing

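In the main fit 85 calls were made on the 42 genes, of which 43 were kept in every alternative and 0 reversed, and 308 of 2292 pairs of call and alternative were lost. When 1 library was left out, the counts at 14 DAF ran from 17 to 21 higher and 5 to 6 lower. The same ranges were 6 to 17 higher and 3 to 9 lower at 10 DAF, 1 to 16 and 0 to 0 at 18 DAF, 1 to 4 and 0 to 7 for golden age, 4 to 8 and 8 to 16 for green age, 0 to 2 and 1 to 3 for the interaction from 10 to 18 DAF, and 0 to 1 and 0 to 0 for that from 10 to 14 DAF.

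Genes higher at 18 DAF numbered 7 with upper-quartile scaling, 6 with the replicate block, 0 with the compared libraries alone, and 1 and 2 with limma on log2(FPKM + 1) and log2(FPKM + 0.1). Genes lower there numbered 1 with upper-quartile scaling, 3 with either limma fit and 2 with DESeq2. For age in the golden line the higher count was 5 with RLE scaling, 1 with the compared libraries alone, 1 with either limma fit and 7 with DESeq2, and the lower count was 3 with upper-quartile scaling, 2 with the filter of at least 1 FPKM, 0 with the compared libraries alone, 10 with either limma fit and 2 with DESeq2. In the green line 5 rose with either limma fit. The interaction from 10 to 18 DAF gave 2 higher with RLE scaling, 2 with the 1 FPKM filter and 3 with DESeq2, and 1 lower with RLE scaling, no filter, the replicate block or the compared libraries alone, and 0 with the 1 FPKM filter. That from 10 to 14 DAF gave 5 higher with the compared libraries alone, 4 with DESeq2, and 1 lower with limma on log2(FPKM + 1). The cause was not tested, except that the compared libraries alone leave fewer samples. FPKM are scaled to library totals only, and with limma on log2(FPKM + 0.1) the median over all genes was -0.18 for age in the golden line and -0.15 between the lines at 18 DAF, against 0.01 and -0.02 in the main fit.

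Replicate numbers did not pair the libraries: correlations of same-numbered deviations ran from -0.164 to 0.0981 between the lines and from -0.0590 to 0.117 between 10 and 18 DAF. With the replicate block the counts were 14 higher and 6 lower at 10 DAF, 18 and 5 at 14 DAF, 6 and 0 at 18 DAF, 2 and 1 for golden age, 7 and 10 for green age, and 1 and 1 and 0 and 0 for the interactions.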
